A study of Mus musculus with 12 samples.

Results

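A set of 10 genes that set the pace of the G1 phase were followed across the 4 groups of a mouse RNA sequencing series, namely the D-type cyclins Ccnd1, Ccnd2 and Ccnd3, their partner kinases Cdk4 and Cdk6, and the inhibitor genes Cdkn1b, Cdkn2a, Cdkn2b, Cdkn2c and Cdkn2d. They were chosen by name and found by matching Ensembl identifiers to symbols, and all 10 were among the 45706 genes of the count table and among the 17003 genes that passed the filter on low counts. Each group held 3 libraries, 12 in all, from cells derived from mouse embryonic stem cells with a GFP reporter knocked into one Sox1 allele, strain C57BL/6 by the labels. Baseline were glial progenitors without Sox1 expression that were not sorted, and Sox1posGP were sorted Sox1-positive glial progenitors; the study calls these NPC and NPC(+), and turned Sox1 on by directing dCas9-VP64, a catalytically dead Cas9 fused to an activation domain, to the Sox1 promoter with guide RNAs. NSC were unsorted neuroepithelial cells, and NR were neuroepithelial cells sorted for GFP and labelled as neural rosettes. The study's methods describe lentiviral dCas9-VP64 lines grown from single cells and replicates from different days and clonal lines, but not which line gave which Baseline or Sox1posGP library. By the methods NPC, NSC and NR cells shared the NeuroCult Proliferation base medium, and bFGF, EGF and laminin are given for the expansion of NPCs, so these additions and derivation cannot be told apart from group. By the labels sorting went together with Sox1 induction, and these also cannot be told apart. The study's methods describe guide RNAs given by plasmid transfection, or by lentivirus with puromycin selection. Which of these the Sox1posGP libraries had is not given in the sources used here. Delivery and drug selection likewise cannot be told apart from induction.

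In a cell that receives growth signals, D cyclins bind Cdk4 or Cdk6, and the complexes phosphorylate the retinoblastoma protein Rb. Phosphorylated Rb releases E2F transcription factors, which switch on genes for cyclin E and for DNA replication. The Cdkn2 genes encode the INK4 inhibitors, which bind Cdk4 and Cdk6 alone: Cdkn2a gives p16INK4a and, from another first exon and reading frame, p19ARF, which holds Mdm2 away from p53. Cdkn2b, Cdkn2c and Cdkn2d give p15INK4b, p18INK4c and p19INK4d. Cdkn1b gives p27Kip1, which blocks cyclin E with Cdk2 and also binds cyclin D complexes. In neural stem and progenitor cells D cyclins govern the length of G1, and the INK4 and Cip/Kip inhibitors are known for restraining self-renewal.

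The values are CPM, counts scaled to a common library size after edgeR's TMM normalization, and fold changes are on the log2 scale with the standard error (SE) of edgeR's quasi-likelihood fit over the 12 libraries. Adjusted p are from that test with Benjamini-Hochberg adjustment over the 17003 genes, and a gene was called at an adjusted p under 0.1. Total counts ran from 3407066 to 18351483 in Baseline and Sox1posGP and from 16707006 to 43095688 in NSC and NR, so depth went with these groups, and the smallest count of any of the 10 genes in any library was 16. Sox1, the induced gene, had 4.83 to 6.00 CPM in Baseline, 20.3 to 21.7 in Sox1posGP, 48.6 to 64.9 in NSC, and 4.62, 20.0 and 19.2 in NR replicates 1 to 3, so replicate 1 of NR was at the Baseline level although NR was sorted on the Sox1 reporter. All 5 pluripotency markers had counts in every NR library, with a summed level of 1326 to 2505 CPM against 43.2 to 130 in NSC and at most 9.01 in the progenitors. The 5 mesenchyme or neural crest markers summed to 806 to 2658 CPM in NSC and 1269 to 5794 in NR, against 32.4 to 52.2 in the progenitors, and the summed level of the 7 neural progenitor markers was lowest in NR (754 to 1294 CPM, against 1508 to 2360 elsewhere), although Sox1, Nes (mean 167 against 90.2 CPM) and Msi1 (26.1 against 8.71) were higher in NR than in Baseline. The 5 glial markers summed to 3161 to 3442 CPM in Baseline, 1490 to 1565 in Sox1posGP and at most 85.5 in NSC and NR. Slc1a3 (mean 2605 CPM in Baseline and 1182 in Sox1posGP) and Olig2 (684 and 331) made up most of the sum in these 2 groups. Gfap (2.25 and 3.09) and S100b (15.4 and 18.4) did not fall in Sox1posGP. Of the 5 glial markers 1 was called higher there (Aqp4, on at most 4 counts) and 2 lower. The 5 neuron markers summed to 324 to 495 CPM outside NR and 143 to 256 in NR, but the sum followed different genes: Map2 averaged 464 CPM in Baseline and 89.9 in NSC, while Tubb3 averaged 5.37 and 253 CPM and Dcx 0.713 and 43.7. The 4 endoderm markers summed to 2.92 to 8.32 CPM in the progenitors, where Afp was at 0, and 31.3 to 49.96 in NSC and NR. In NSC this sum was mostly Foxa2 (mean 34.3 CPM), while Sox17 averaged 1.97, Gata6 1.67 and Afp 0.0454. In NR Foxa2 averaged 21.2 and Sox17 13.0 CPM. In bulk libraries fewer cells of a type and less RNA per cell cannot be told apart, and the part of these markers in the results that follow was not tested.

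Over the 4 groups all 10 genes differed somewhere (10 of 10 called, against 92.5% of all genes tested). Between Sox1posGP and Baseline 2 of the 10 were higher and 4 lower, where 21.6% of all genes tested were higher and 22.7% lower, and none passed a 4-fold change as well (5.79% of all genes did). The group values of 8 of the 10 did not overlap, against 52.7% of genes. In NSC against Baseline 1 gene was higher and 8 were lower (44.4% and 33.7% of all genes), 3 by more than 4-fold (25.0%). In NR against Baseline 1 was higher and 9 were lower (45.6% and 34.1%), 4 by more than 4-fold (28.0%). The median log2 fold change of the 10 genes was -1.31 in NSC and -1.86 in NR, while that of all genes tested was 0.20 and 0.19. Between Sox1posGP and Baseline the medians were -0.12 and 0. The 2 comparisons of NSC and NR share the Baseline libraries.

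**Figure D1:**
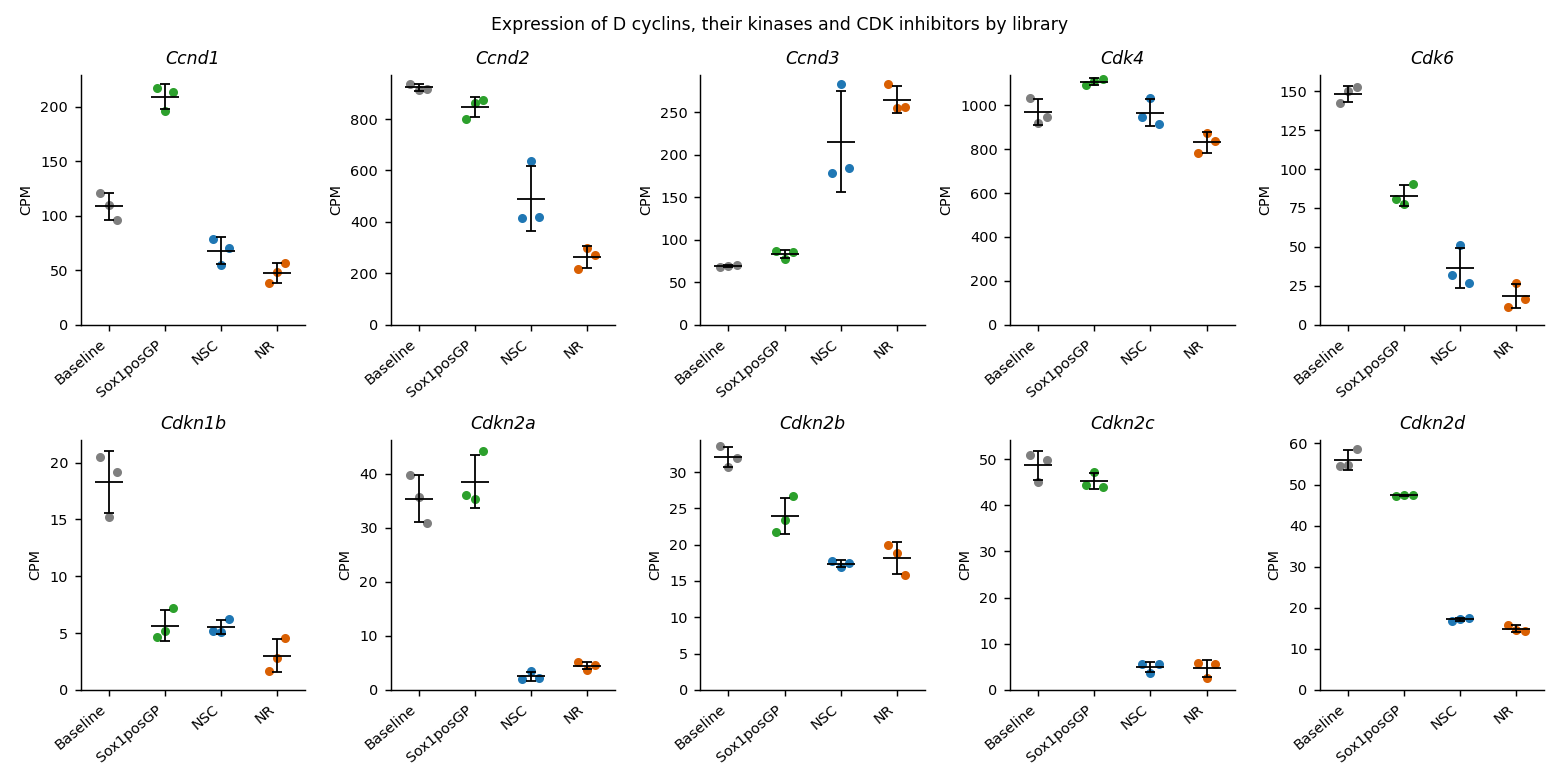
CPM of each of the 10 genes in the 12 libraries by group; each point is a library, ordered by replicate number, and the bar and whiskers give the mean and SD of 3. Ccnd3 runs against the other D cyclins in NSC and NR, and Cdk4 stays between 781 and 1121 CPM. Cdkn2a, Cdkn2c and Cdkn2d fall into a high pair of groups (Baseline, Sox1posGP) and a low pair (NSC, NR).

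Ccnd1 encodes cyclin D1, the D cyclin that responds most directly to mitogens. It had 121, 109 and 95.8 CPM in Baseline replicates 1 to 3 and 217, 196 and 214 in Sox1posGP. The induced libraries thus all lay above every Baseline library, with a log2 fold change of 0.94 (SE 0.15, adjusted p = 2.67e-04), 1.92-fold. In NSC it had 79.0, 54.3 and 70.6 CPM and in NR 38.1, 48.0 and 56.7, below Baseline in all 6 libraries. The log2 fold change against Baseline was -0.68 in NSC (SE 0.15, adjusted p = 0.00104) and -1.19 in NR (SE 0.15, adjusted p = 7.67e-06). Ccnd1 therefore rose in Sox1posGP and was lower than Baseline in NSC and NR, and Sox1posGP exceeded NSC by 1.62 (SE 0.15, adjusted p = 5.09e-07) and NR by 2.13 (SE 0.16, adjusted p = 3.93e-08). The gene lies on chromosome 7 from 144929931 to 144939925 on the minus strand (GRCm38), and its 3′ end overlaps LTO1 on the other strand, which had 34 to 865 counts; the strand setting of the counting is not stated.

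Ccnd2 encodes cyclin D2, a D cyclin known from cycling neural progenitors of the cortex. It was the D cyclin with the highest level in the progenitors, with 937, 913 and 918 CPM in Baseline and 800, 863 and 872 in Sox1posGP. The ranges did not overlap, but the difference did not pass the test (log2 fold change -0.13, SE 0.15, adjusted p = 0.564). In NSC the values were 416, 636 and 417 CPM and in NR 215, 299 and 270, so all 3 NR libraries lay below all 3 NSC libraries and both lay below the progenitors. Against Baseline Ccnd2 fell by 0.91 on the log2 scale in NSC (SE 0.15, adjusted p = 9.88e-05) and by 1.82 in NR (SE 0.16, adjusted p = 1.42e-07). It lies on chromosome 6 from 127125162 to 127152193 on the minus strand.

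Ccnd3, for cyclin D3, took the opposite course in NSC and NR. It had 68.2, 69.3 and 69.9 CPM in Baseline and 86.3, 77.9 and 86.1 in Sox1posGP, against 179, 284 and 184 in NSC and 283, 255 and 256 in NR. All 6 libraries of NSC and NR lay above the 6 of the progenitors, and Ccnd3 was the only one of the 10 genes higher in NSC and in NR than in Baseline. The log2 fold change was 1.64 in NSC (SE 0.15, adjusted p = 2.25e-07) and 1.94 in NR (SE 0.15, adjusted p = 4.27e-08). In Sox1posGP its 3 values lay above those of Baseline, with a log2 fold change of 0.27 that did not pass (SE 0.15, adjusted p = 0.186). Of 8 other settings 4 called it, with adjusted p of 0.00135 to 0.0920, the smallest in the fit of only these 2 groups. The main fit takes the spread from all 4 groups together. The coefficient of variation between libraries was 7.69% in Baseline and 4.07% in Sox1posGP, against 18.6% in NSC and 21.1% in NR. Ccnd3 lies on chromosome 17 from 47505051 to 47599691 on the plus strand, and its 3′ end overlaps Bysl on the other strand, which had 289 to 3878 counts.

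**Figure D2:**
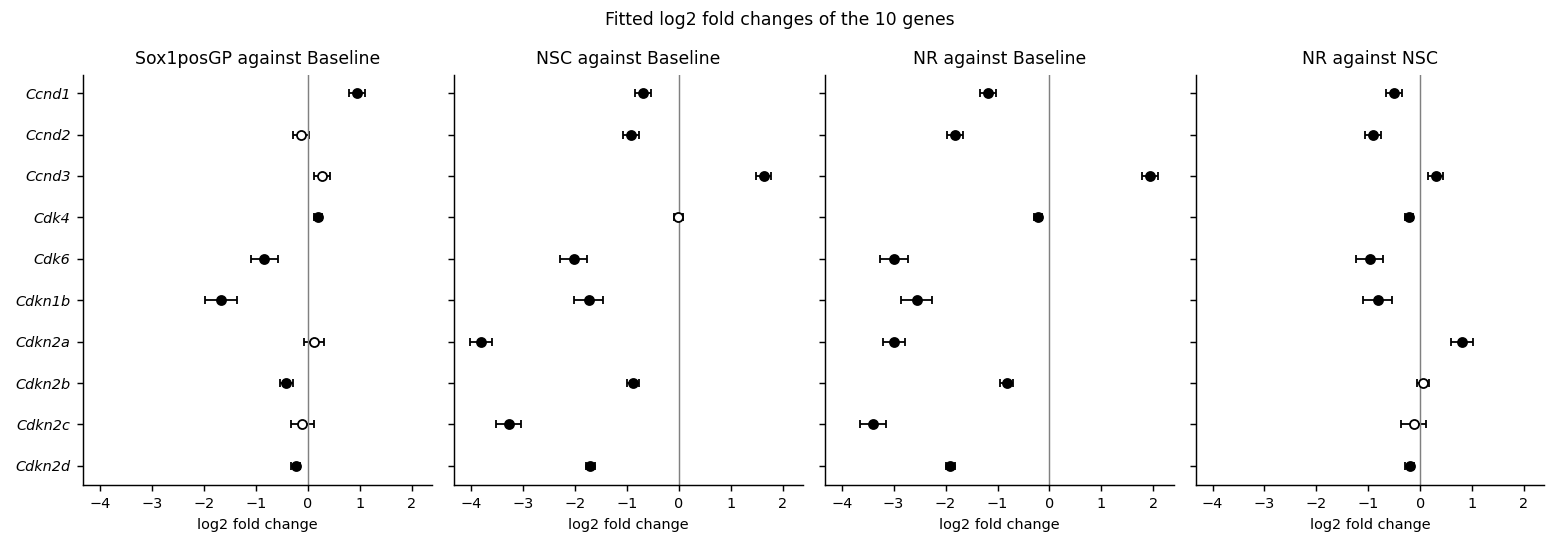
Fitted log2 fold change (x axis) of each gene (y axis) in 4 comparisons, with whiskers of 1 SE; filled points were called at an adjusted p under 0.1 and open points were not. Ccnd3 is the sole filled point right of 0 in the NSC and NR comparisons with Baseline, and Cdkn2a lies farthest left in NSC (-3.81).

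Cdk4 encodes the main kinase partner of the D cyclins in these cells by level, and of the 10 genes it differed least between groups. It had 1034, 922 and 948 CPM in Baseline, 1091, 1113 and 1121 in Sox1posGP, 946, 1035 and 916 in NSC and 781, 872 and 839 in NR. The values of NSC overlapped those of Baseline (log2 fold change -0.00, SE 0.080, adjusted p = 0.963), and the range of the 4 group means was 0.42 on the log2 scale. Sox1posGP lay 0.19 above Baseline (SE 0.080, adjusted p = 0.0723), a call that was lost in 5 of 6 fits that left out 1 library (adjusted p 0.112 to 0.343; it held without Baseline replicate 1 only). NR lay 0.22 below Baseline on the log2 scale (log2 fold change -0.22, SE 0.080, adjusted p = 0.0216), a call that was lost in 3 of 8 other settings (adjusted p 0.105 to 0.314). Cdk4 lies on chromosome 10 from 127063534 to 127067920 on the plus strand and overlaps Tspan31 on the other strand (679 to 2942 counts). The median of the other expressed genes on chromosome 10 was 0.15 in Sox1posGP against Baseline, where the median over the 9666 genes above 3 log2 CPM was -0.06, and 26 of the 57 expressed genes within 5 Mb of Cdk4 rose at least as far as Cdk4.

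The 250 bases before the start site of Cdk4 are shown because Cdk4 is a known target of Myc, and Myc was among the genes with the largest changes here. RefSeq's sequence for GRCm38.p6, chr10:127063285-127063534, plus strand, 5′ to 3′, has the E-box letters CACGTG in capitals:
Cdk4: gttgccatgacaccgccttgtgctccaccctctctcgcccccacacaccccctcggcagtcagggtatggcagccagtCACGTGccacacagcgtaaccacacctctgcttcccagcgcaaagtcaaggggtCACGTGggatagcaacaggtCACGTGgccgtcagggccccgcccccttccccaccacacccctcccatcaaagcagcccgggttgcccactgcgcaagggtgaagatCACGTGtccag
These letters, which read the same on both strands, stood 4 times in this window, beginning 172, 118, 98 and 11 bases before the start. Of the 32851 RefSeq promoter windows of this length 6.02% held them at least once, and of the 11 windows matched to 8 of the 10 genes 2 did, the other being that of Cdk6 with 1 match. A match is a description of letters and not a measured binding site. Myc itself had 757, 919 and 910 CPM in Baseline, 308, 316 and 294 in Sox1posGP, 40.6, 61.6 and 43.6 in NSC and 62.8 to 81.2 in NR. Mycn, its relative in neural precursors, had 7.26 to 8.14 CPM in Baseline, 6.08 to 9.58 in Sox1posGP, 249 to 369 in NSC and 215 to 245 in NR. In NSC against Baseline Myc had a log2 fold change of -4.15 (SE 0.16, adjusted p = 7.55e-11) and Mycn one of 5.25 (SE 0.18, adjusted p = 2.36e-11), while Cdk4 did not differ beyond its spread. Whether Myc or Mycn had a part in the level of Cdk4 was not tested.

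Cdk6, the other D cyclin kinase, varied far more than Cdk4. It had 142, 150 and 153 CPM in Baseline, 80.8, 77.4 and 90.2 in Sox1posGP, 31.8, 51.1 and 26.7 in NSC and 11.6, 26.7 and 16.7 in NR. Every Sox1posGP library lay below every Baseline library and above every NSC and NR library, and NSC and NR touched at 26.7 CPM. Against Baseline the log2 fold change was -0.84 in Sox1posGP (SE 0.26, adjusted p = 0.0189), -2.02 in NSC (SE 0.26, adjusted p = 7.43e-06) and -3.00 in NR (SE 0.27, adjusted p = 2.13e-07). None of the 14 expressed genes within 5 Mb of Cdk6 fell as far as Cdk6 in any of these comparisons. Cdk6 lies on chromosome 5 from 3341485 to 3531008 on the plus strand.

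Of the 5 inhibitors in the set, Cdkn1b was the one that fell most in Sox1posGP. It had 20.5, 15.2 and 19.2 CPM in Baseline, 4.63, 5.18 and 7.17 in Sox1posGP, 5.19, 5.11 and 6.22 in NSC and 1.66, 2.81 and 4.61 in NR. The Sox1posGP values, which rest on 16 to 43 counts, thus lay below all Baseline values and within or around those of NSC. Its log2 fold change against Baseline was -1.67 in Sox1posGP (SE 0.31, adjusted p = 7.24e-04), -1.73 in NSC (SE 0.28, adjusted p = 7.17e-05) and -2.56 in NR (SE 0.29, adjusted p = 2.43e-06). Sox1posGP and NSC differed by 0.06 (SE 0.31, adjusted p = 0.873), so a difference of that SE or larger, either way, could have gone unresolved. Within 5 Mb on chromosome 6 the median of 20 expressed genes was -0.28 in Sox1posGP, -0.73 in NSC and -0.76 in NR, and 2, 7 and 4 of the 20 fell at least as far as Cdkn1b. The gene lies from 134920401 to 134925513 on the plus strand.

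Cdkn2a showed the widest range of the 10 genes, 3.89 on the log2 scale between group means. It had 39.7, 35.7 and 30.9 CPM in Baseline and 36.2, 35.3 and 44.2 in Sox1posGP, against 1.97, 3.52 and 2.23 in NSC and 5.11, 3.74 and 4.64 in NR. Baseline and Sox1posGP overlapped (log2 fold change 0.12, SE 0.19, adjusted p = 0.692), and all 6 progenitor libraries lay far above all 6 of NSC and NR. The log2 fold change against Baseline was -3.81 in NSC (SE 0.22, adjusted p = 2.42e-09), 13.99-fold lower, and -3.00 in NR (SE 0.21, adjusted p = 1.66e-08), 7.98-fold lower. Sox1posGP exceeded NSC by 3.92 (SE 0.22, adjusted p = 3.12e-09), so its Cdkn2a level stayed with the progenitors. The gene lies on chromosome 4 from 89274471 to 89294653 on the minus strand, and its counts sum the transcripts of p16INK4a and p19ARF, which cannot be split here.

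The 2 start sites that RefSeq gives for Cdkn2a, 12427 bases apart, are shown because the counts of the gene sum the transcripts from both. Both windows are the 250 bases before the start on the minus strand of GRCm38.p6, 5′ to 3′, the upstream one at chr4:89294620-89294869 and the downstream one at chr4:89282193-89282442, with a match to the E2F-type letters in capitals:
Cdkn2a upstream start: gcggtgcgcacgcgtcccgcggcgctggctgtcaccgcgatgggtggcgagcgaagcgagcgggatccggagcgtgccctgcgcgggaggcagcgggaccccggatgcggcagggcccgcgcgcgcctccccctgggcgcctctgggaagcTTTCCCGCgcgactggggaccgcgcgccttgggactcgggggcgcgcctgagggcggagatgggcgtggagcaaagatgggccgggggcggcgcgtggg
Cdkn2a downstream start: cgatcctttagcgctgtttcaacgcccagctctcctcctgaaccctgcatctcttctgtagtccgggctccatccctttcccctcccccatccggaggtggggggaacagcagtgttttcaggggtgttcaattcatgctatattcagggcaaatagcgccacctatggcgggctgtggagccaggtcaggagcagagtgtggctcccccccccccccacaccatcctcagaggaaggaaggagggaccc
The letters searched on both strands were TTTCCCGC, TTTCGCGC, TTTGCCGC and TTTGGCGC. Only the upstream window of Cdkn2a held one among the 11 windows, beginning 99 bases before the start, where 1.86% of all 32851 windows held one. The GC content was 78.4% in the upstream and 60.0% in the downstream window. GC boxes (GGGCGG) stood in 7 of the 11 windows, against 32.7% of all windows.

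Cdkn2b neighbours Cdkn2a on chromosome 4 (89306299 to 89311039, minus strand) and changed much less. It had 33.5, 30.7 and 31.9 CPM in Baseline, 21.7, 23.4 and 26.7 in Sox1posGP, 17.8, 16.9 and 17.5 in NSC and 19.95, 18.8 and 15.8 in NR. Baseline was above every other library, and NSC and NR overlapped. The log2 fold change against Baseline was -0.42 in Sox1posGP (SE 0.13, adjusted p = 0.0174), -0.88 in NSC (SE 0.12, adjusted p = 1.36e-05) and -0.82 in NR (SE 0.12, adjusted p = 2.52e-05). Of the 14 expressed genes within 5 Mb of Cdkn2a, which include Cdkn2b, the median was 0.03 in NSC and -0.33 in NR, and 1 in NSC and none in NR fell as far as Cdkn2a.

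Cdkn2c, the gene of p18INK4c, followed Cdkn2a. It had 50.8, 45.1 and 49.9 CPM in Baseline and 44.3, 47.3 and 44.0 in Sox1posGP, against 5.66, 3.70 and 5.61 in NSC and 5.85, 2.58 and 5.54 in NR. The progenitor groups overlapped each other (log2 fold change -0.10, SE 0.23, adjusted p = 0.776), and so did NSC and NR. Against Baseline the log2 fold change was -3.28 in NSC (SE 0.24, adjusted p = 3.77e-08) and -3.40 in NR (SE 0.25, adjusted p = 3.02e-08), farther than any of the 35 expressed genes within 5 Mb. It lies on chromosome 4 from 109660876 to 109667189 on the minus strand.

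Cdkn2d, the gene of p19INK4d, had 54.5, 54.7 and 58.7 CPM in Baseline, 47.2, 47.4 and 47.5 in Sox1posGP, 16.8, 17.2 and 17.5 in NSC and 15.8, 14.7 and 14.3 in NR. No 2 groups overlapped, and the level fell in the order Baseline, Sox1posGP, NSC, NR. The log2 fold change against Baseline was -1.70 in NSC (SE 0.089, adjusted p = 1.21e-09) and -1.91 in NR (SE 0.091, adjusted p = 4.55e-10). In Sox1posGP it was -0.24 (SE 0.090, adjusted p = 0.0521), and 5 of 6 fits without 1 library lost that call (adjusted p 0.110 to 0.153; it held without Baseline replicate 2 only), as did 5 of 8 other settings. Cdkn2d lies on chromosome 9 from 21288410 to 21291407 on the minus strand.

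Between NR and NSC 2 of the 10 genes were higher and 6 lower, where 30.0% of all genes tested were higher and 26.6% lower, and none changed by more than 4-fold (7.46% of all genes). Both counts stand against libraries in which pluripotency markers were high and the summed neural progenitor markers low in NR. Ccnd2 (log2 fold change -0.90, SE 0.15, adjusted p = 3.03e-04), Cdk6 (-0.98, SE 0.25, adjusted p = 0.00596), Cdkn1b (-0.82, SE 0.28, adjusted p = 0.0259) and Ccnd1 (-0.51, SE 0.15, adjusted p = 0.0118) were lower in NR under all 14 alternatives. Cdkn2a was higher by 0.81 (SE 0.21, adjusted p = 0.00590), but with every library thinned to 3407066 counts it was 0.47 and did not pass (adjusted p = 0.277). The smaller differences of Ccnd3 (0.30, adjusted p = 0.0917), Cdk4 (-0.22, adjusted p = 0.0361) and Cdkn2d (-0.20, adjusted p = 0.0680) did not hold throughout. Ccnd3 lost its call without NSC replicate 1 or 3 or NR replicate 1 or 3 (0.15 to 0.32, adjusted p 0.136 to 0.413), Cdk4 without NR replicate 1 (-0.18, adjusted p = 0.134), and Cdkn2d without NSC replicate 3 or NR replicate 2 or 3 (adjusted p 0.113 to 0.189). Same-numbered libraries of these groups deviated together, and in a fit blocked on that number Cdkn2d was at -0.21 and not called (adjusted p = 0.111). Without NR replicate 1, the library with little Sox1, 6 of the 10 genes were called in this comparison and 10 of 10 against Baseline. Replicate 2 had the lowest summed mesenchyme markers in both groups (806 CPM in NSC and 1269 in NR), and also the lowest summed pluripotency markers (43.2 and 1326 CPM). It had the highest Ccnd2, Cdk4 and Cdk6 and the lowest Cdkn2c of its group. Ccnd3 and Cdkn2a were highest in replicate 2 of NSC but lowest in that of NR. This rests on 1 library a group, and a link of these genes to the markers was not tested.

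Sox1posGP was also set against NSC and NR, which share its libraries. In this comparison 8 were higher and 1 lower than in NSC (31.4% and 41.8% of all genes tested), 2 of them by more than 4-fold (22.2%), and 9 were higher and 1 lower than in NR (32.0% and 44.4%), 4 by more than 4-fold (26.1%). The lower gene was Ccnd3 both times, by 1.37 on the log2 scale against NSC (log2 fold change -1.37, SE 0.15, adjusted p = 1.77e-06) and by 1.67 against NR (-1.67, SE 0.15, adjusted p = 2.52e-07). Cdkn2c exceeded NSC by 3.17 (SE 0.25, adjusted p = 7.61e-08) and NR by 3.30 (SE 0.25, adjusted p = 6.02e-08), and Cdk6 exceeded NR by 2.16 (SE 0.27, adjusted p = 6.70e-06). Cdkn1b exceeded NR by 0.88 (SE 0.32, adjusted p = 0.0225), which without Sox1posGP replicate 3 was 0.66 (adjusted p = 0.131). Cdk4 exceeded NSC by 0.20 (SE 0.080, adjusted p = 0.0401), which was lost without NSC replicate 3 or Sox1posGP replicate 2 or 3 (adjusted p 0.113 to 0.126).

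To compare genes with each other, CPM was divided by the merged exon length in kb. Of the summed D cyclin level per kb, Ccnd2 made up 76.0% ± 1.35 in Baseline, 62.5% ± 2.10 in Sox1posGP, 56.7% ± 3.42 in NSC and 40.7% ± 4.33 in NR (SD, n = 3). Ccnd1 made up 17.9% ± 1.58 in Baseline and 30.9% ± 1.73 in Sox1posGP, and 16.5% ± 5.46 in NSC and 14.8% ± 2.24 in NR. Ccnd3 went from 6.11% ± 0.247 in Baseline and 6.61% ± 0.367 in Sox1posGP to 26.7% ± 2.05 in NSC and 44.6% ± 5.65 in NR. Sox1posGP was thus the group in which cyclin D1 made up the largest share, and in NR the shares of Ccnd3 and Ccnd2 lay within 1 SD of each other on this length. With the longest transcript as length, Ccnd3 made up 56.1% and Ccnd2 33.6% in NR, and Ccnd3 9.31% in Baseline; its merged exons span 8775 bases and its longest transcript 3858. The summed D cyclin level was 129 ± 3.62 CPM per kb in Baseline, 144 ± 3.67 in Sox1posGP, 91.0 ± 17.7 in NSC and 68.1 ± 4.26 in NR.

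**Figure D3:**
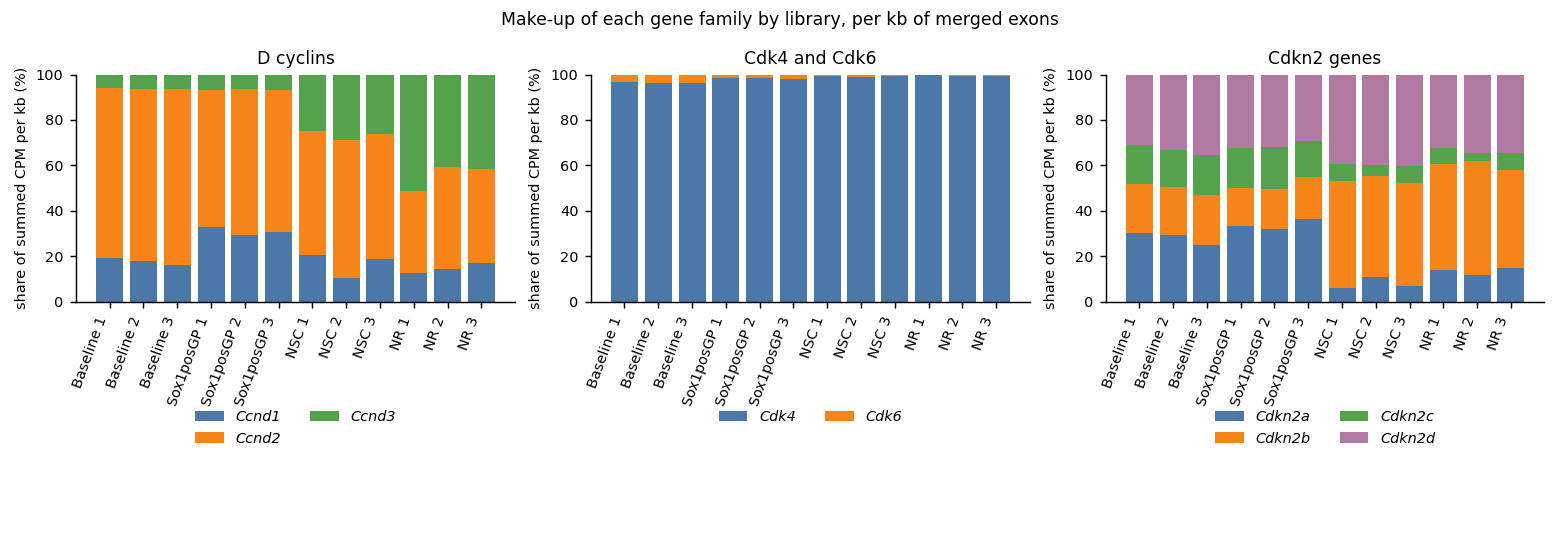
Share of each gene in the summed CPM per kb of its family (y axis, %), for the D cyclins, for Cdk4 and Cdk6, and for the 4 Cdkn2 genes, in each of the 12 libraries (x axis). Ccnd3 widens from 5.84% to 6.97% in the progenitor libraries to 25.0% to 51.1% in NSC and NR, and Cdkn2a and Cdkn2c narrow there while Cdkn2b widens.

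Cdk4 made up 96.6% ± 0.305 of the Cdk4 and Cdk6 level per kb in Baseline, 98.3% ± 0.123 in Sox1posGP, 99.1% ± 0.242 in NSC and 99.5% ± 0.185 in NR, so Cdk6 transcripts were a small part in all groups and largest in Baseline. The 4 Cdkn2 genes summed to 107 ± 4.05 CPM per kb in Baseline and 97.1 ± 5.65 in Sox1posGP, against 27.5 ± 0.211 in NSC and 28.1 ± 2.46 in NR. Their make-up changed with their sum: Cdkn2a made up 28.2% ± 2.81 in Baseline, 33.8% ± 2.36 in Sox1posGP, 7.99% ± 2.59 in NSC and 13.6% ± 1.62 in NR, while Cdkn2b made up 21.6% ± 0.319, 17.7% ± 0.875, 45.6% ± 1.34 and 46.5% ± 3.61 in the same order. Cdkn2d made up between 31.1% and 39.7% on average in each group.

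Among 25 other genes of the G1 to S transition 12 were higher and 5 lower in Sox1posGP than in Baseline (21.6% and 22.7% of all genes), with a median log2 fold change of 0.27 where that of all genes was 0. The cyclin E genes Ccne1 and Ccne2, whose products act with Cdk2 after the D cyclins, rose the most. Ccne1 went from 10.9 to 14.2 CPM in Baseline to 36.2 to 39.3 in Sox1posGP (log2 fold change 1.58, SE 0.16, adjusted p = 3.90e-06), and Ccne2 from 12.8 to 16.1 to 41.5 to 46.0 (1.56, SE 0.13, adjusted p = 6.35e-07). The largest falls were those of the remaining Cip/Kip inhibitors. Cdkn1a, the gene of p21, fell from 318 to 327 CPM to 64.0 to 69.3 (-2.27, SE 0.26, adjusted p = 1.26e-05), and Cdkn1c, the gene of p57, from 25.9 to 30.5 CPM to 0.579 to 1.26, on 2, 8 and 4 counts in Sox1posGP (fitted -4.97, SE 0.27, adjusted p = 1.34e-08). All 3 Cip/Kip genes were therefore lower in Sox1posGP. Of the Cdkn2 genes, Cdkn2b (-0.42) and Cdkn2d (-0.24) were called lower there by smaller amounts, and Cdkn2a and Cdkn2c did not pass the test.

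**Figure D4:**
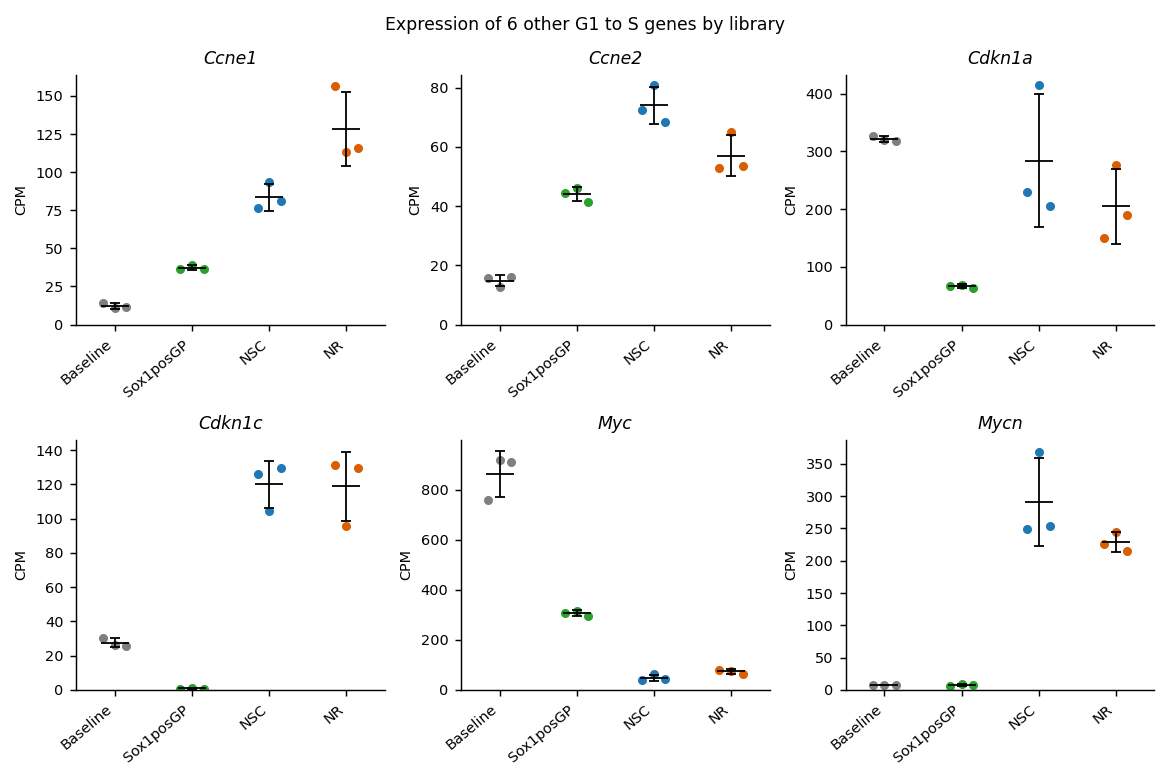
CPM of Ccne1, Ccne2, Cdkn1a, Cdkn1c, Myc and Mycn in the 12 libraries by group; each point is a library, and the bar and whiskers give the mean and SD of 3. Ccne1 and Ccne2 are lowest in Baseline, with Sox1posGP between Baseline and both NSC and NR, whereas Cdkn1a and Cdkn1c are lowest in Sox1posGP.

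In NSC 18 of these 25 genes were higher and 4 lower than in Baseline (44.4% and 33.7% of all genes; median 0.89), and in NR 15 and 7 (45.6% and 34.1%; median 0.34). Mycn and Ccne1 rose the most in both, Ccne1 by 2.74 in NSC (SE 0.15, adjusted p = 1.83e-09) and 3.36 in NR (SE 0.15, adjusted p = 2.92e-10). The largest falls were those of Myc and Cks1b in NSC and of Myc and Rbl2 in NR; Cks1b encodes a cofactor in the turnover of p27, and Rbl2 a relative of Rb. Cdkn1c, in contrast to Sox1posGP, was higher by 2.11 in NSC (SE 0.14, adjusted p = 1.40e-08) and by 2.09 in NR (SE 0.14, adjusted p = 1.40e-08). Cdkn1a did not pass in NSC (-0.18, SE 0.24, adjusted p = 0.493) and was lower in NR (-0.65, SE 0.24, adjusted p = 0.0231). Between NR and NSC 3 were higher and 13 lower (30.0% and 26.6% of all genes), with Ccne1 and Myc rising most and E2f2 and Rbl1 falling most. Against Sox1posGP, 4 were higher and 16 lower in Sox1posGP than in NSC (31.4% and 41.8% of all genes), and 8 and 15 than in NR (32.0% and 44.4%), with Myc and Cks1b highest and Cdkn1c and Mycn lowest by difference each time.

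Of 18 S phase and proliferation genes 12 were higher and 3 lower in Sox1posGP than in Baseline (21.6% and 22.7% of all genes), 16 were higher and 0 lower in NSC (44.4% and 33.7%; 0 lower in edgeR also at an unadjusted p under 0.05, and by DESeq2), and 15 higher and 1 lower in NR (45.6% and 34.1%). In Sox1posGP Rrm1, a ribonucleotide reductase subunit, rose by 0.83 (SE 0.089, adjusted p = 7.52e-06) and Tyms, thymidylate synthase, by 0.83 (SE 0.088, adjusted p = 6.92e-06), while Top2a (-0.45, SE 0.11, adjusted p = 0.00373) and Rrm2 (-0.41, SE 0.093, adjusted p = 0.00319) fell. In NSC the replication helicase gene Mcm4 rose by 1.56 (SE 0.11, adjusted p = 2.01e-08) and Rrm2 by 1.49 (SE 0.093, adjusted p = 6.54e-09). In NR the helicase genes Mcm4 (1.80) and Mcm5 (1.57) rose most and Tk1, thymidine kinase, fell (-0.36, SE 0.082, adjusted p = 0.00114). The median of the list was 0.47 in Sox1posGP, 0.76 in NSC and 0.90 in NR. Between NR and NSC 9 were higher and 6 lower (30.0% and 26.6% of all genes), with the largest rises in Pola1 (0.47) and Mcm6 (0.40) and the largest falls in Rrm1 (-0.59) and Mki67 (-0.42). In Sox1posGP 12 were lower than in NSC (41.8% of all genes), and again 12 than in NR (44.4%), with Rrm2 and Mcm5 lowest by difference.

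A list of 16 genes known to act on the Cdkn2a and Cdkn2b locus or between p19ARF and p53 moved both ways. In Sox1posGP against Baseline 4 were higher and 4 lower, in NSC 8 and 3, and in NR 10 and 3, with medians of 0.12, 0.29 and 0.68. Over all genes 21.6% were higher and 22.7% lower in Sox1posGP, 44.4% and 33.7% in NSC and 45.6% and 34.1% in NR, so the counts of Sox1posGP and the higher count of NSC were near the background. Between NR and NSC 5 were higher and 6 lower (30.0% and 26.6% of all genes), and in Sox1posGP 4 were higher and 10 lower both against NSC (31.4% and 41.8%) and against NR (32.0% and 44.4%). In Sox1posGP against Baseline the largest rises were those of Tbx2 (1.20, adjusted p = 0.0809) and Id1 (0.91, adjusted p = 0.00314), and the largest falls those of Ets1 and Suz12 (-0.36, adjusted p = 0.0450). Hmga2, a chromatin protein known to repress the locus, rose 3.89-fold in NSC (SE 0.33 on the log2 scale, adjusted p = 9.93e-05) and Cbx8, a Polycomb gene, was lower there (-0.93, SE 0.19, adjusted p = 4.63e-04) and in NR (-1.94, SE 0.19, adjusted p = 6.60e-07). The Polycomb gene Bmi1, a repressor of Cdkn2a, had 107 to 121 CPM in Baseline, 134 to 150 in Sox1posGP, 77.5 to 85.7 in NSC and 45.4 to 46.8 in NR. It was lower in NR than in NSC, whereas Cdkn2a was higher in NR than in NSC, a call that thinning ended (adjusted p = 0.277). Against Baseline the 2 genes went the same way, with every NSC and NR library below every Baseline library for both. A link between Bmi1 and Cdkn2a was not tested. Cbx7, a Polycomb gene with the same known target, had 3.14 to 9.75 CPM in the other groups and 35.1 to 76.1 in NR (log2 fold change against Baseline 3.04, SE 0.35, adjusted p = 2.43e-06). The repressor gene Tbx2 had 0.626 to 1.07 CPM in Baseline, 4.80 to 7.53 in NSC and 3.55 to 10.04 in NR (2.61, SE 0.42, adjusted p = 7.44e-05, and 2.98, SE 0.42, adjusted p = 1.99e-05). Its values rest on 3 to 18 counts in Baseline and 6 to 16 in Sox1posGP. Ets1, known to activate p16INK4a, had 295 to 326 CPM in Baseline, 164 to 194 in Sox1posGP, 40.1 to 69.6 in NSC and 22.6 to 56.3 in NR (-0.83, SE 0.28, adjusted p = 0.0328 in Sox1posGP; -2.59, SE 0.29, adjusted p = 2.41e-06 in NSC; -3.17, SE 0.30, adjusted p = 3.81e-07 in NR). The transcript of Mdm2, whose protein p19ARF holds away from p53, was higher by 1.76 in NSC (SE 0.14, adjusted p = 7.34e-08) and by 1.90 in NR (SE 0.14, adjusted p = 3.40e-08). A link of this transcript level to Cdkn2a was not tested.

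The genes whose course over the 12 libraries was closest to that of Ccnd1, the D cyclin with the widest range, by the root mean square difference of centred log2 CPM, were Inafm1 (0.112), Gatad2b (0.153) and Fbxo32 (0.168). Gatad2b had 68.5 CPM in Baseline, 150 in Sox1posGP, 45.2 in NSC and 31.3 in NR on average. For Cdkn2a, the inhibitor with the widest range, they were Lgals1 (0.281), Ninj1 (0.295) and Gm15417 (0.302), of which Lgals1 had 955, 1387, 70.3 and 150 CPM in the same order.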

How the data were processed

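RNA of 12 samples in 4 groups of 3 was isolated with the PicoPure kit, amplified with SMART-Seq v4 and sequenced. The authors deposited raw counts per Ensembl gene, without normalization, for 45706 genes; no other per-sample column was used. The processing notes of the submitters name STAR 2.6, RSEM 1.1.14 and mm10 without their roles, and the counting step, strand setting and annotation are not given in the sources used here. Symbols, coordinates and lengths were taken from GENCODE M21 for GRCm38, while 0.124% of counts fell on the 563 genes with no symbol. Groups and replicate numbers came from the sample titles.

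Counts were scaled by TMM and filtered with filterByExpr, and edgeR 4.0.16 (glmQLFit, glmQLFTest; limma 3.58.1, R 4.3.3) was run over all 12 libraries with group as the only term. P values were adjusted by Benjamini-Hochberg over 17003 genes, and SE is the log2 fold change over the square root of F. The fits were tested on simulated counts with the same spread in every gene and group and with 4-fold changes in Sox1posGP only. That test did not cover smaller changes or the unequal spread of the groups. Replicates are described as independent samples made on different days. Same-numbered NR and NSC libraries deviated together (correlations 0.229, 0.490 and 0.296), and the pairing is taken from these values and not from the labels; the other comparisons averaged -0.039 to 0.028. Named were the 10 genes, of each list the 2 called genes with the largest rise and the 2 with the largest fall per comparison, and the 3 genes closest in course to 2 of the members; Bmi1, Mdm2 and the values of Cdkn1a, Cdkn1c, Myc and Mycn outside that rule were chosen after their values were seen. A gene that this rule names is not reported here. The genes and lists were chosen with earlier results of these data known. Alternatives were DESeq2 1.42.0 (Wald test), RLE and upper-quartile scaling, other filters, the replicate block, fits of 2 groups, an adjusted p of 0.05, a fold over 4, thinning to 3407066 counts, transcript length and leaving out each library. Plots used matplotlib 3.10.9 (Python 3.11.15, pandas 2.3.3). Promoter sequences are RefSeq's, for 8 of the 10 genes.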

Additional observations from a re-analysis of the deposited data

How the results depend on the processing

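Over the alternatives the counts of the 10 genes called stayed within 1.5 times the main count, except that asking for a fold over 4 as well left 0 in Sox1posGP against Baseline, 3 in NSC and 4 in NR against Baseline, 0 in NR against NSC, 2 in Sox1posGP against NSC and 4 in Sox1posGP against NR. Leaving out 1 library gave 4 to 5, 9 to 9, 10 to 10, 6 to 8, 8 to 9 and 9 to 10 in the same order. Of the values of single genes under alternatives 856 kept direction and call, 85 were no longer called, 4 became called and 15 reversed, all of differences that were not called. Cdk4 in NSC against Baseline became positive with DESeq2 (0.043), RLE (0.037), upper-quartile scaling (0.030), no filter (0.083) and at least 10 counts in every library (0.079), and ran from -0.062 to 0.037 without 1 library, positive without NSC replicate 1 or 3 or Baseline replicate 1. Cdkn2b in NR against NSC was -0.015 with no filter, -0.058 after thinning and -0.014 to 0.15 without 1 library (negative without NR replicate 1), Cdkn2c there ran from -0.32 to 0.17 without 1 library (positive without NR replicate 2), and Cdkn1b in Sox1posGP against NSC was -0.019 with no filter, -0.071 after thinning and -0.17 to 0.21 without 1 library (negative without Sox1posGP replicate 3). The cause was not tested. The replicate block changed 1 call of the 60, that of Cdkn2d in NR against NSC (-0.21, adjusted p = 0.111). Against Baseline the block gave 0.94 for Ccnd1 in Sox1posGP and -3.82 for Cdkn2a in NSC, and for groups other than NR and NSC it rests on shared numbers alone. Transcript length in place of merged exons moved 20 of 36 shares by more than 1 SD.

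Cdkn1b rested on 16 to 43 counts in Sox1posGP, and thinning to the smallest total ended the calls of Cdkn2a (0.47, adjusted p = 0.277) and Cdkn2d (adjusted p = 0.335) in NR against NSC and of Cdkn2d in Sox1posGP against Baseline (adjusted p = 0.246). With 3 libraries a group, small differences were not resolved, such as those of Ccnd2 and Cdkn2c in Sox1posGP, which were smaller than their SE. A difference larger than its SE could also go uncalled, as that of Ccnd3 there did (0.27, SE 0.15). Reads of opposite-strand genes at the 3′ ends of Ccnd1, Ccnd3 and Cdk4 cannot be told apart where strand was not used. In Sox1posGP sorting, Sox1 induction, guide RNA delivery, drug selection and clonal line cannot be told apart.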
